A study of Mus musculus with 20 samples.

Results

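The genes studied here encode the machinery of mitochondrial oxidative phosphorylation: the subunits of respiratory complexes I to IV, the subunits of ATP synthase (complex V), and a few assembly factors that carry the same name stems. They were chosen by name, as every probe whose gene name starts with Nduf and one of the letters a, b, c, s or v, with Uqcr, with Cox and a digit from 4 to 8, or with Atp5, or is Sdha, Sdhb, Sdhc or Sdhd. This gave 90 genes with 121 probes, out of 27156 genes with a probe that 4 or more of the 20 arrays read well above background. All 90 passed that filter. The lowest detection was 12 of 20 arrays for Cox7b2, 14 for Cox8c and 16 for Cox8b, and the other 87 genes were well above background on all 20. By name, complex I has 38 of the genes, complex I assembly 4, complex II 4, complex III 8, complex IV 19 and complex V 17. Some names are old. Cox4nb is now Emc8, a subunit of a membrane protein complex of the endoplasmic reticulum, Atp5sl is now Dmac2 and Atp5s is now Dmac2l, so these 3 match the name rule without encoding a respiratory subunit. Ndufa4 and its paralog Ndufa4l2 are counted here with complex I by their names, and Ndufa4 is now placed with complex IV. All counts and medians by complex below follow the names.

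The RNA was mouse and was hybridised on 2 one-colour arrays per line. Embryonic stem cells (ESCs) were represented by Oct4-GFP ESCs, Nanog-GFP ESCs and KH2 ESCs. The other 7 lines were induced pluripotent stem cells (iPSCs), graded by the labels as poor (KH2_OSKM, Oct4-GFP OSKM#2 and also Nanog-GFP OSKM#2), good (Nanog-GFP SNEL#3 and also BC_2 OSKM) or high quality (Oct4-GFP SNEL#1 and also Nanog-GFP SNEL#2). OSKM lines were made with Oct4, Sox2, Klf4 and Myc, and SNEL lines with Sall4, Nanog, Esrrb and Lin28. Every line was grown in 2i medium, which holds cells in a naive pluripotent state, with no feeder cells and no treatment, and each line is 1 line, with strain, sex and passage not given in the labels. The labels do not say how quality was measured, nor whether separate cultures lie behind the 2 arrays of each line. A p-value between lines therefore measures only the spread between arrays, which may be technical.

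Oxidative phosphorylation passes electrons from NADH (complex I) and succinate (complex II) through complex III to oxygen at complex IV, and the proton gradient that this builds drives ATP synthesis by complex V. Most subunits are encoded in the nucleus and made in every cell, but several subunits of complex IV exist as paired isoforms, one found widely and one found mainly in heart and skeletal muscle, lung or testis. Naive pluripotent cells respire as well as ferment glucose, and mitochondrial activity falls as they move towards later pluripotent states.

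A level is a log2 signal after subtraction of that array's 75th percentile, so 1 unit is a 2-fold difference, and a level is compared between lines for the same probe only. Between 48.9% and 77.2% of the probes of an array were well above background, and as line means this share was lowest in Nanog-GFP SNEL#3 at 50.1%. The arrays lay on 3 slides. Slide 3 held only the second arrays of Oct4-GFP SNEL#1 and of the 3 ESC lines, so it holds no poor or good line. In those same 4 lines several fibroblast genes were high although the labels give no feeder cells. Of 21 fibroblast markers measured, of 23 listed, 10 lay higher in each of the 4 lines than in each of the other 6. How many of all genes separate the lines in this way was not counted. Lum, Postn and Dcn are among the 10 and were well above background on only 5, 8 and 10 of the 20 arrays. Between lines, 19 of the 21 markers differed, against 61.8% of all genes. Col1a1, which encodes type I collagen, lay between 0.54 and 1.49 there and between -5.27 and -0.71 in the other 6 lines, and Col1a2 between 0.99 and 1.75 against -3.89 and -0.93. Thbs1 lay between -2.49 and -0.54 against -7.91 and -3.28. Other markers did not follow: Vim was highest in Nanog-GFP SNEL#3 (5.71), Pdgfrb in KH2_OSKM (0.4), Fap in Nanog-GFP OSKM#2 (-3.44), and Sparc and Fn1 in BC_2 OSKM. Of 14 pluripotency markers all were measured, and their median difference from the ESC lines lay between -0.12 and 0.24 in every line. Single markers moved more and in both directions, and 13 of the 14 differed between lines, against 61.8% of all genes. In Nanog-GFP SNEL#3 10 of the 14 were called higher and 2 lower (17.4% and 15.4% of all genes). Over the lines Dppa3 ranged 18.6-fold and Zfp42 6.06-fold. In RNA from whole cultures, fewer cells of a type and less RNA per cell cannot be told apart.

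The oxidative phosphorylation genes varied less between lines than most genes on the array. They were also brighter, with a median level at percentile 94.9 of all genes, and were not compared with genes of like level. Their median standard deviation over the 10 lines was 0.15 log2 units against 0.36 for all genes, and the highest line exceeded the lowest by a median of 1.39-fold against 2.18-fold. Only 9 of 90 members, 10%, differed by more than 2-fold between the highest and the lowest line, against 56.5% of all genes, and 68 members stayed within 1.5-fold. The 2 arrays of a line differed little, with a median standard deviation of 0.086 for members and 0.16 for all genes, so small differences between lines could still be called. By limma's moderated F test over the 20 arrays (Benjamini-Hochberg over all genes, threshold 0.05), 65 of 90 members (72.2%) differed between lines, against 61.8% of all genes. By complex, 27 of 38 genes of complex I, 3 of 4 assembly factors, 2 of 4 genes of complex II, 8 of 8 of complex III, 13 of 19 of complex IV and 12 of 17 of complex V passed. With slide as a block the number of members was 80, and on the authors' own value table it was 43. Over the 18 alternatives run, between 14549 and 18087 genes were called in all. On the authors' table the share of members called was therefore not above that of all genes.

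By name, the 9 members over 2-fold were 7 genes of complex IV (Cox4i2, Cox6a2, Cox7a1, Cox7b2, Cox8b, Cox8c and Cox4nb) and 2 of complex I (Ndufa4l2 and Ndufab1). Apart from Ndufab1 and Cox4nb, these are isoforms known for a restricted tissue distribution. Ndufa4l2, a paralog of Ndufa4 known as a target of hypoxia signalling, has its probe on chromosome 10 (mm9, 126954149 to 126954208, plus strand). The poor lines lay at 4.08 in Nanog-GFP OSKM#2, 3.33 in Oct4-GFP OSKM#2 and 5.66 in KH2_OSKM. The good lines lay at 5.47 in BC_2 OSKM and 2.17 in Nanog-GFP SNEL#3, the high lines at 3.0 in Nanog-GFP SNEL#2 and 4.66 in Oct4-GFP SNEL#1, and the ESC lines at 2.67 in KH2 ESCs, 5.11 in Nanog-GFP ESCs and 3.62 in Oct4-GFP ESCs. KH2_OSKM, BC_2 OSKM and Nanog-GFP ESCs were the highest and Nanog-GFP SNEL#3 the lowest, an 11.2-fold range (SD between arrays 0.14, n = 10 lines; limma F test over 27156 genes, adjusted p = 6.18e-09). Each quality group held both a high and a low line, and the 3 ESC lines themselves ran from 2.67 to 5.11. Against the mean of the ESC lines, Ndufa4l2 was 3.62-fold higher in KH2_OSKM (log2 1.85 ± 0.11, SE) and 3.18-fold higher in BC_2 OSKM (1.67 ± 0.11). It was at 0.323 of the ESC mean in Nanog-GFP SNEL#3 (log2 -1.63 ± 0.11).

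**Figure D1:**
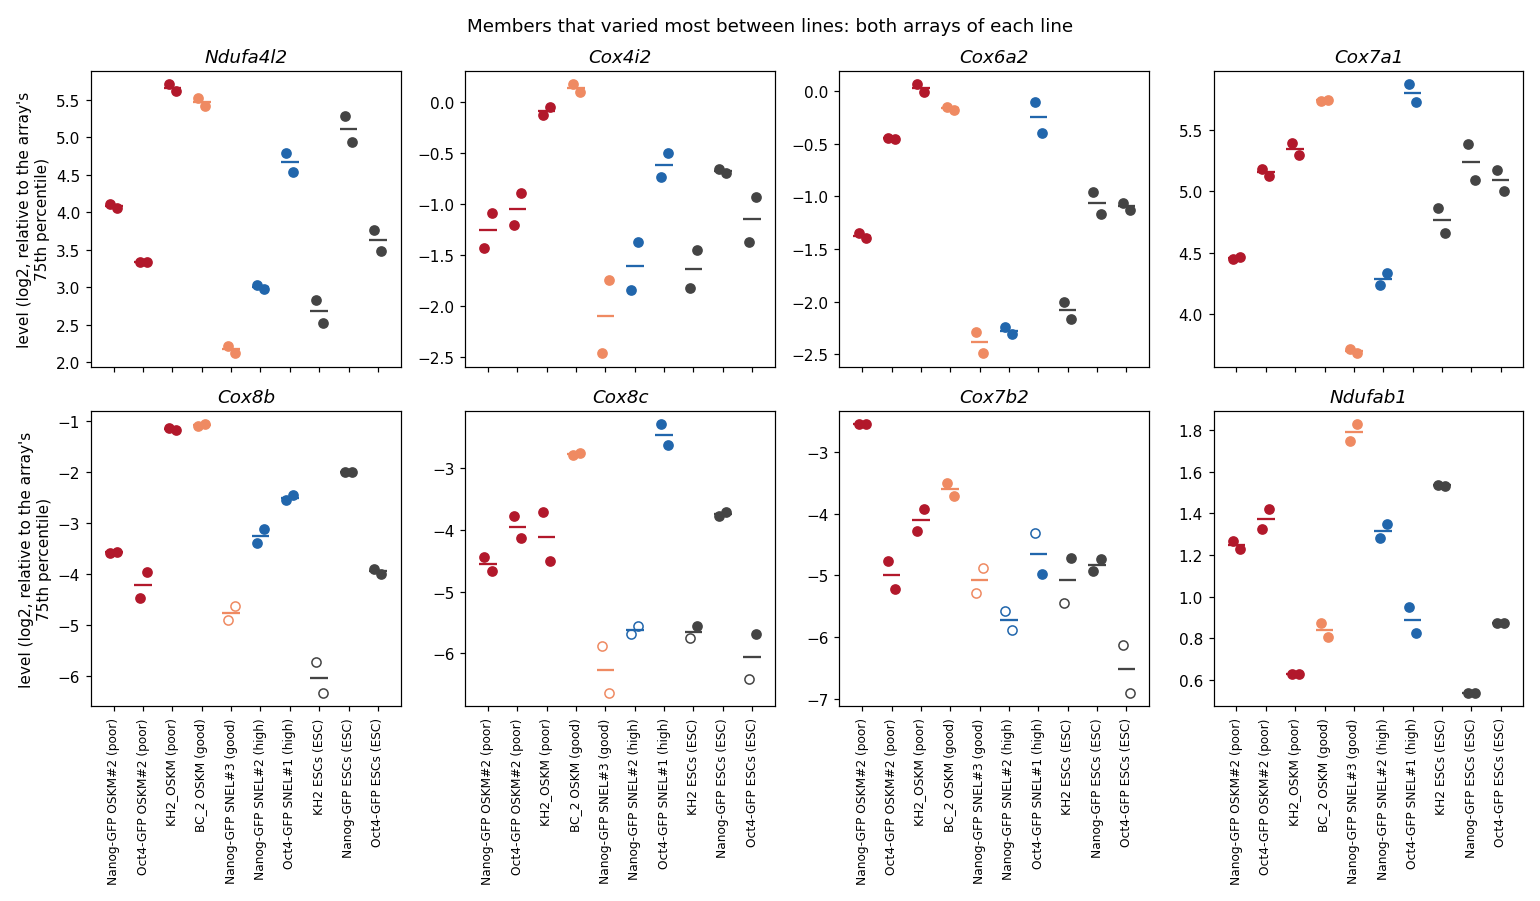
Levels (log2, relative to the 75th percentile of each array, y axis) of 8 members in the 10 lines (x axis, with the quality group), where each point is 1 array, bars are line means and hollow points are spots not well above background. The 2 arrays of a line lie closest for Ndufab1, Cox7a1, Cox6a2 and Ndufa4l2 (SD between arrays 0.06 to 0.14). They lie farther apart for the dim Cox7b2 and Cox8c (0.32 and 0.31). Lines of 1 group can lie apart: Ndufa4l2 spans 2.67 to 5.11 among the ESC lines alone.

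Cox4i2, the isoform of subunit 4 best known from lung and from low oxygen, followed a like order. Cox4i2 measured -1.26 in Nanog-GFP OSKM#2, -1.05 in Oct4-GFP OSKM#2 and -0.09 in KH2_OSKM among the poor lines. It measured 0.14 in BC_2 OSKM and -2.1 in Nanog-GFP SNEL#3, then -1.61 in Nanog-GFP SNEL#2 and -0.62 in Oct4-GFP SNEL#1, and -1.64 in KH2 ESCs, -0.68 in Nanog-GFP ESCs and -1.15 in Oct4-GFP ESCs. BC_2 OSKM and KH2_OSKM stood highest and Nanog-GFP SNEL#3 lowest, over a 4.73-fold range (adjusted p = 0.000123, limma F test). Its partner Cox4i1, the common isoform, ranged only 1.28-fold, from 7.61 in KH2_OSKM to 7.96 in Nanog-GFP OSKM#2 and Nanog-GFP SNEL#2, and did not pass the test (adjusted p = 0.119).

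Cox6a2, the heart and skeletal muscle isoform of subunit 6a, split the lines more sharply. Its level was -1.37 in Nanog-GFP OSKM#2, -0.45 in Oct4-GFP OSKM#2 and 0.03 in KH2_OSKM. It was -0.16 in BC_2 OSKM and -2.39 in Nanog-GFP SNEL#3, both good lines, and -2.28 in Nanog-GFP SNEL#2 and -0.25 in Oct4-GFP SNEL#1, both high lines. Among ESC lines it was -2.08 in KH2 ESCs, -1.06 in Nanog-GFP ESCs and -1.1 in Oct4-GFP ESCs. Nanog-GFP SNEL#3, Nanog-GFP SNEL#2 and KH2 ESCs, all at -2.08 or lower, lay below the other 7 lines, of which the lowest was at -1.37, and the range was 5.34-fold (adjusted p = 7.22e-09, limma F test). The common isoform Cox6a1 ranged 1.28-fold, between 8.58 and 8.93 (adjusted p = 0.228).

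Cox7a1, the heart and muscle isoform of subunit 7a, was well above background throughout. The poor lines lay at 4.46 in Nanog-GFP OSKM#2, 5.16 in Oct4-GFP OSKM#2 and 5.34 in KH2_OSKM. The good lines lay at 5.74 in BC_2 OSKM and 3.7 in Nanog-GFP SNEL#3, the high lines at 4.29 in Nanog-GFP SNEL#2 and 5.8 in Oct4-GFP SNEL#1, and the ESC lines at 4.77 in KH2 ESCs, 5.24 in Nanog-GFP ESCs and 5.09 in Oct4-GFP ESCs. Oct4-GFP SNEL#1 and BC_2 OSKM were the highest and Nanog-GFP SNEL#3 the lowest, 4.28-fold apart (adjusted p = 8.82e-08). The liver-type isoform Cox7a2 ranged 1.34-fold (5.62 to 6.05, adjusted p = 0.0101) and Cox7a2l, a factor that joins complexes III and IV into supercomplexes, 1.48-fold (6.50 to 7.06, adjusted p = 0.000416). Both of these were highest in Nanog-GFP SNEL#3, the line in which Cox7a1 was lowest.

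The 3 dimmest members were Cox8b, Cox8c and Cox7b2. Cox8b is the heart and muscle isoform of subunit 8. Cox8b measured -3.57 in Nanog-GFP OSKM#2, -4.21 in Oct4-GFP OSKM#2 and -1.16 in KH2_OSKM among the poor lines. It measured -1.09 in BC_2 OSKM and -4.76 in Nanog-GFP SNEL#3, then -3.26 in Nanog-GFP SNEL#2 and -2.5 in Oct4-GFP SNEL#1, and -6.02 in KH2 ESCs, -2.0 in Nanog-GFP ESCs and -3.94 in Oct4-GFP ESCs. In Nanog-GFP SNEL#3 and KH2 ESCs both arrays were not well above background, so BC_2 OSKM was at least 9.94-fold above the first and at least 26.8-fold above the second (adjusted p = 1.09e-08). These bounds set the mean of the brighter line against the lowest signal counted as well above background on the arrays of the dimmer line, or the dim spot itself where that was higher. Cox8c is the testis isoform. Its level was -4.55 in Nanog-GFP OSKM#2, -3.95 in Oct4-GFP OSKM#2 and -4.11 in KH2_OSKM. It was -2.77 in BC_2 OSKM and -6.26 in Nanog-GFP SNEL#3, both good lines, and -5.63 in Nanog-GFP SNEL#2 and -2.45 in Oct4-GFP SNEL#1, both high lines. Among ESC lines it was -5.66 in KH2 ESCs, -3.75 in Nanog-GFP ESCs and -6.05 in Oct4-GFP ESCs. Oct4-GFP SNEL#1 and BC_2 OSKM were the highest, and Nanog-GFP SNEL#3 and Nanog-GFP SNEL#2 were not well above background on either array, so the highest line was at least 3.92-fold and 6.88-fold above them (adjusted p = 2.53e-06). Cox8a, the common isoform, had the smallest range of the 3 paralogs, 1.14-fold between 8.08 and 8.27, and did not pass the test (adjusted p = 0.727).

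Cox7b2, a testis isoform of subunit 7b, had an order of its own. The poor lines lay at -2.55 in Nanog-GFP OSKM#2, -4.99 in Oct4-GFP OSKM#2 and -4.1 in KH2_OSKM. The good lines lay at -3.6 in BC_2 OSKM and -5.08 in Nanog-GFP SNEL#3, the high lines at -5.73 in Nanog-GFP SNEL#2 and -4.64 in Oct4-GFP SNEL#1, and the ESC lines at -5.08 in KH2 ESCs, -4.83 in Nanog-GFP ESCs and -6.52 in Oct4-GFP ESCs. Nanog-GFP OSKM#2 was highest. Neither array was well above background in Nanog-GFP SNEL#3, Nanog-GFP SNEL#2 and Oct4-GFP ESCs, and the highest line stood at least 3.68-fold, 6.46-fold and 12.9-fold above them (adjusted p = 2.15e-05). On the authors' value table the whole range of Cox7b2 was 3.99-fold. The common Cox7b, on the X chromosome, ranged 1.29-fold (6.85 to 7.21, adjusted p = 0.0966). For these 3 dim genes the size of the range depended on background handling: with normexp correction it was 6.27-fold for Cox8b, 2.89-fold for Cox8c and 2.94-fold for Cox7b2, while Ndufa4l2 kept 11-fold.

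Taking the 7 restricted isoforms side by side, BC_2 OSKM and Oct4-GFP SNEL#1 were among the 4 highest lines for all 7, KH2_OSKM for 6 (not Cox8c) and Nanog-GFP ESCs for 5 (not Cox6a2 or Cox7b2). Nanog-GFP SNEL#3 was the lowest line for each of the 4 isoforms detected on all arrays, Ndufa4l2, Cox4i2, Cox6a2 and Cox7a1. For Cox7b2, only 1 of the 2 arrays of Oct4-GFP SNEL#1 was well above background. Cox6b2, a testis isoform that ranged less than 2-fold, is not among the 7. It lay at 5.06 in BC_2 OSKM but at 4.33 in Oct4-GFP SNEL#1 and 4.39 in KH2_OSKM, where the lowest line was at 4.30. The 7 isoforms were singled out after their values were seen, and the counts are a description. Markers of cardiac and skeletal muscle moved with them in part. Of 12 markers, 11 were measured and 10 differed between lines, against 61.8% of all genes. The log2 of their summed signal was lowest in Nanog-GFP SNEL#3 (0.58) and highest in Oct4-GFP SNEL#1 (2.19), with KH2_OSKM at 1.85 and KH2 ESCs at 0.69. Within the groups this summed level ran from 1.45 to 1.85 in poor lines, from 0.58 to 1.62 in good, from 0.95 to 2.19 in high and from 0.69 to 1.39 in ESC lines. Des, which encodes the muscle filament desmin, ran from -2.77 in Nanog-GFP SNEL#3 to -0.02 in KH2_OSKM. Myog, which encodes the myogenic factor myogenin, was well above background on 9 of 20 arrays. Other markers of the list had a different order. Nppa, a cardiac hormone gene, was highest in Nanog-GFP SNEL#3 (-2.34) and lay at -3.7 in Oct4-GFP SNEL#1. Myl2, a myosin light chain gene, was highest in Oct4-GFP ESCs (-1.05) and lowest in Nanog-GFP ESCs (-3.41) and BC_2 OSKM (-3.4), and Acta1, which encodes skeletal muscle actin, was highest in Nanog-GFP SNEL#2 (-2.44). The part of muscle-like cells in the isoform values was not tested.

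Other paralog sets were steadier. Cox6b2, a testis isoform of subunit 6b, ranged 1.69-fold, from 4.30 in KH2 ESCs to 5.06 in BC_2 OSKM (adjusted p = 3e-04, limma F test), and Cox6b1 1.21-fold (adjusted p = 0.126). Ndufa4 ranged 1.29-fold, from 5.37 in KH2_OSKM to 5.73 in Nanog-GFP SNEL#2, so the lowest line for Ndufa4 was the highest for Ndufa4l2 (adjusted p for Ndufa4 = 0.000152). The 3 genes for the c subunit of the ATP synthase rotor, which encode the same mature protein, ranged 1.5-fold (Atp5g1), 1.23-fold (Atp5g2) and 1.53-fold (Atp5g3), and Atp5g1 and Atp5g3 passed the test (adjusted p = 2.25e-05 and 0.00109) while Atp5g2 did not (adjusted p = 0.194). Atp5g1 and Atp5g3 were both highest in KH2 ESCs, at 7.67 and 7.34.

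Ndufab1, the mitochondrial acyl carrier protein and a subunit of complex I, was besides Ndufa4l2 the only gene counted with complex I over 2-fold. Ndufab1 measured 1.25 in Nanog-GFP OSKM#2, 1.37 in Oct4-GFP OSKM#2 and 0.63 in KH2_OSKM among the poor lines. It measured 0.84 in BC_2 OSKM and 1.79 in Nanog-GFP SNEL#3, then 1.32 in Nanog-GFP SNEL#2 and 0.89 in Oct4-GFP SNEL#1, and 1.53 in KH2 ESCs, 0.54 in Nanog-GFP ESCs and 0.87 in Oct4-GFP ESCs. Nanog-GFP SNEL#3 and KH2 ESCs were highest and Nanog-GFP ESCs and KH2_OSKM lowest, nearly the reverse of the order of Ndufa4l2, with a 2.38-fold range (adjusted p = 4.81e-08). Ndufv1, the NADH-binding flavoprotein, moved the same way over a 1.44-fold range, from 6.35 in BC_2 OSKM to 6.87 in KH2 ESCs (adjusted p = 3.09e-05). Over the other 36 genes of complex I the lines differed by less than 2-fold. Cox4nb, now Emc8, ran from 3.20 in KH2_OSKM to 4.23 in KH2 ESCs, 2.04-fold (adjusted p = 2.89e-06), and 1.84-fold after quantile normalization.

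Of the 4 assembly factors of complex I with an Nduf name, Ndufaf4 had the smallest p. It ran from 2.71 in Oct4-GFP SNEL#1 to 3.46 in Nanog-GFP SNEL#3, 1.68-fold (adjusted p = 9.51e-06). Ndufaf2 was lowest in Oct4-GFP SNEL#1 (2.51) and highest in Nanog-GFP SNEL#3 (3.06), and Ndufaf1 lowest in KH2_OSKM (2.44) and highest in Oct4-GFP ESCs (2.92), with adjusted p of 0.00113 and 0.0152 by limma's F test. In complex II, Sdhb, the iron-sulfur subunit, was highest in Nanog-GFP SNEL#3 (6.98) and lowest in BC_2 OSKM (6.50), 1.40-fold (adjusted p = 8.31e-05). Sdha, the flavoprotein, ranged 1.34-fold, from 5.15 in Oct4-GFP OSKM#2 to 5.57 in KH2 ESCs (adjusted p = 0.000895). The membrane anchor Sdhd ranged 1.31-fold, and its adjusted p was 0.0682.

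All 8 genes of complex III differed between lines. Uqcrq, a small accessory subunit, ran from 6.76 in Nanog-GFP ESCs to 7.33 in KH2 ESCs, 1.49-fold (adjusted p = 1.09e-05). The 2 extremes were thus both ESC lines. Uqcrfs1, the Rieske iron-sulfur protein, was lowest in KH2_OSKM (4.21) and highest in Nanog-GFP SNEL#2 (4.92), 1.63-fold (adjusted p = 4.89e-05). Uqcrh, the hinge protein near cytochrome c1, was lowest in BC_2 OSKM (6.68) and highest in KH2 ESCs (7.25), 1.48-fold (adjusted p = 0.000154).

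In complex V the smallest p belonged to Atp5l, subunit g of the membrane part of ATP synthase. Its level was 6.28 in Nanog-GFP OSKM#2, 6.24 in Oct4-GFP OSKM#2 and 5.97 in KH2_OSKM. It was 5.8 in BC_2 OSKM and 6.49 in Nanog-GFP SNEL#3, both good lines, and 6.39 in Nanog-GFP SNEL#2 and 6.01 in Oct4-GFP SNEL#1, both high lines. Among ESC lines it was 6.61 in KH2 ESCs, 6.03 in Nanog-GFP ESCs and 6.36 in Oct4-GFP ESCs. KH2 ESCs were highest and BC_2 OSKM lowest, a 1.76-fold range (adjusted p = 4.35e-06, limma F test). Atp5k, subunit e, ran from 6.07 in Nanog-GFP ESCs to 6.73 in KH2 ESCs, 1.58-fold (adjusted p = 2.43e-05). The array's annotation places the Atp5k probe on an unplaced part of chromosome 1 in mm9, while RefSeq places the gene on chromosome 5. Against the mean of the ESC lines, Atp5l was at 0.689 of the ESC mean in BC_2 OSKM (log2 -0.54 ± 0.05, SE; adjusted p = 5.12e-06) and at 0.78 in KH2_OSKM (-0.36 ± 0.05; adjusted p = 0.000138).

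Over the 10 lines the levels of 23 of the other 89 members (25.8%) had a Pearson correlation with Ndufa4l2 below -0.8, against 10.2% of all genes, and 5 of 89 (5.62%) had one above 0.8, against 5.68%. Of the 23, 8 were among the 17 genes of complex V, 3 among the 8 of complex III, 9 among the other 37 of complex I and 2 among the 19 of complex IV. The assembly factor Ndufaf4 (-0.87) completes them. Counted by name, those of complex V include Atp5sl (-0.86) and those of complex IV include Cox4nb (-0.89), which do not encode respiratory subunits. These values are a description over 10 lines that share slides and scaling. The lowest were those of Uqcr11, a small subunit of complex III (-0.95), Uqcrh (-0.94) and Atp5l (-0.93), followed by Atp5j2 and Atp5j, subunits f and F6 of ATP synthase (-0.92 and -0.91).

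The promoters of these 5 genes are printed here because they had the lowest correlations with Ndufa4l2, and the promoter of Cox7a1 as that of a restricted isoform. Each runs 5′ to 3′ on the gene's strand, over 300 bases around the start in RefSeq (GRCm38.p6). Capitals mark matches, on either strand, to letters bound by 3 factors known for respiratory genes: GCATGCG for NRF1, CCGGAAG for GABPA (the other name of which is NRF2) and ATGGCGG for YY1. Matches on the 2 strands can overlap, as where CGCATGCG reads the same on both. The positions are chr10:80406772-80407071 (minus strand) for Uqcr11, chr4:116075021-116075320 (minus strand) for Uqcrh, chr9:44920693-44920992 (minus strand) for Atp5l, chr5:145191492-145191791 (minus strand) for Atp5j2, chr16:84834927-84835226 and chr16:84835576-84835875 (minus strand) for the 2 starts of Atp5j, and chr7:30183921-30184220 (plus strand) for Cox7a1.
Uqcr11: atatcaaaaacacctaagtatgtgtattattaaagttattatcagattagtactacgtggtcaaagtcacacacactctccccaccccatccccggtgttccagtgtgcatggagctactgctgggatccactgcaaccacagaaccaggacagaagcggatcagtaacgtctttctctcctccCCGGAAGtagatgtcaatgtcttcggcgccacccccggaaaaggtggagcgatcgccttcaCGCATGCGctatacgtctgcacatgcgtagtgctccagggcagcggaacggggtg
Uqcrh: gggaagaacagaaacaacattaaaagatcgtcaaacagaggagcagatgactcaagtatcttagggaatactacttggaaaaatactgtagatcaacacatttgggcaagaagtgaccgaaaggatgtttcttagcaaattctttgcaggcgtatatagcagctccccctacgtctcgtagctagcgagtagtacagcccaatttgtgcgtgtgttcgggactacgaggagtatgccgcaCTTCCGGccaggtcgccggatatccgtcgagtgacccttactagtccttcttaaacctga
Atp5l: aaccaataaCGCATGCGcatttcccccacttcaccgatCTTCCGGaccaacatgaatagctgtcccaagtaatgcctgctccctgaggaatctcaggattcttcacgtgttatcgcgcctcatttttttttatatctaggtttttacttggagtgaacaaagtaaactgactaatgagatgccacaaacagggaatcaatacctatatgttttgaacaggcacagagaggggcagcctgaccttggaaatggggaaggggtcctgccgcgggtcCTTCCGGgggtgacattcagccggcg
Atp5j2: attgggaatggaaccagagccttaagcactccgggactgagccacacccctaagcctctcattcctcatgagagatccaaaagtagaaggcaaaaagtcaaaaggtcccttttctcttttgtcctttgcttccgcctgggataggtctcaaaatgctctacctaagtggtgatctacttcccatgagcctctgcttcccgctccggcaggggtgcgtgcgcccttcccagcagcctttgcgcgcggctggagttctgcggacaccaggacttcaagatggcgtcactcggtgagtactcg
Atp5j, one start: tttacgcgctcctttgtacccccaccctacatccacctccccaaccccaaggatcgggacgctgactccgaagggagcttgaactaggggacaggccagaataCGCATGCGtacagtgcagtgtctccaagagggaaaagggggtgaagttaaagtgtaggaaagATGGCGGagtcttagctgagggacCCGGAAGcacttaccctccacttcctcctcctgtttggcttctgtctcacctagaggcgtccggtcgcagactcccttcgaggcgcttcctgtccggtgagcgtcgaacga
Atp5j, the other start: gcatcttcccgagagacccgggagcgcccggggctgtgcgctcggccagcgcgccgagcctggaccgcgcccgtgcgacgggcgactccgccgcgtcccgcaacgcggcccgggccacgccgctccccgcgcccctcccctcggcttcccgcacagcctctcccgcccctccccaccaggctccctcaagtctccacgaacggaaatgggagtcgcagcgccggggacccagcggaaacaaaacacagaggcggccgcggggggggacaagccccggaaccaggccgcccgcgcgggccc
Cox7a1: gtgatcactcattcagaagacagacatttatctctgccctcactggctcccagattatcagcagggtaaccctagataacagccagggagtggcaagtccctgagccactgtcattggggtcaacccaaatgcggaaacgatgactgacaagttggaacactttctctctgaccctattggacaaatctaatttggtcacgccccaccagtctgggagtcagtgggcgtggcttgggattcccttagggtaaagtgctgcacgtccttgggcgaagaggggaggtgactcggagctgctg
The windows of Uqcr11 and Atp5l hold the NRF1 and GABPA letters, and that of Uqcrh the GABPA letters only. Of the 2 starts of Atp5j, one window holds all 3 motifs and the other none. None of the 3 is in the windows of Atp5j2 and Cox7a1. A promoter was matched for 74 of the 90 members. Of these, 12 (16.2%) held the NRF1 letters against 4.01% of all genes in the table, 17 (23%) the GABPA letters against 9.93%, and 11 (14.9%) the YY1 letters against 4.69%. By complex, at least 1 of the 3 motifs was found in 15 of 33 genes of complex I, 8 of 16 of complex V, 3 of 5 of complex III and 3 of 13 of complex IV. Of the 11 genes with the YY1 letters, 8 belong to complex I and 0 to complex IV. A match is a description of these letters and not of a bound site.

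Each line was next set against the mean of the ESC lines (an ESC line against the other 2), in the limma fit over the 20 arrays. After 75th-percentile scaling, 10 of 90 members were higher and 10 lower in Nanog-GFP OSKM#2 (14% and 17% of all genes), and 10 and 8 in Oct4-GFP OSKM#2 (14% and 11.4%). In KH2_OSKM 10 were higher and 29 lower (19.7% and 23.1% of all genes), and in BC_2 OSKM 16 and 26 (18.6% and 22.5%). The 2 lines at the other end were Nanog-GFP SNEL#3, with 20 higher and 7 lower (17.4% and 15.4%), and Nanog-GFP SNEL#2, with 22 and 3 (14.8% and 14.6%). Oct4-GFP SNEL#1 had 6 higher and 31 lower (13.8% and 23%). Among the ESC lines, KH2 ESCs had 33 higher and 6 lower (14.6% and 11.6%), Nanog-GFP ESCs 9 and 31 (15.4% and 20.6%), and Oct4-GFP ESCs 1 and 3 (9.55% and 9.01%). KH2 ESCs and Nanog-GFP ESCs thus had 43.3% and 44.4% of the members called against the other ESC lines, while in the iPSC lines the share ran from 20% to 46.7%.

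The direction of these counts depended on the scaling. After quantile normalization the members higher and lower were 20 and 11 in KH2_OSKM, 17 and 18 in BC_2 OSKM, 12 and 7 in Oct4-GFP SNEL#1 and 21 and 5 in Nanog-GFP OSKM#2, so that the excess of lower members in KH2_OSKM and Oct4-GFP SNEL#1 turned over, although the median over all 90 in Oct4-GFP SNEL#1 stayed below 0. In Oct4-GFP OSKM#2 they were 16 and 6, in Nanog-GFP SNEL#2 14 and 3, in Nanog-GFP SNEL#3 12 and 10, in KH2 ESCs 15 and 10, in Nanog-GFP ESCs 11 and 17 and in Oct4-GFP ESCs 1 and 2. Of all 27156 genes, those called under this scaling numbered 12259 in KH2_OSKM, 10750 in BC_2 OSKM, 8849 in Oct4-GFP SNEL#1 and 8091 in Nanog-GFP OSKM#2. They numbered 6692 in Oct4-GFP OSKM#2, 7734 in Nanog-GFP SNEL#2 and 8757 in Nanog-GFP SNEL#3. In the ESC lines they numbered 6489 in KH2 ESCs, 9237 in Nanog-GFP ESCs and 4863 in Oct4-GFP ESCs. On the authors' value table the counts were 15 and 9 in KH2_OSKM, 12 and 7 in Oct4-GFP SNEL#1, 9 and 8 in KH2 ESCs and 9 and 9 in Nanog-GFP ESCs. All genes called there numbered 11506, 8246, 5843 and 8670 in these lines, in the same order. After 75th-percentile scaling the median of all genes itself lay at -0.13 in Oct4-GFP SNEL#1 and at -0.10 in BC_2 OSKM. The median of the 90 members was -0.13 and -0.06 in those 2 lines, which is -0.004 and 0.05 relative to all genes.

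**Figure D2:**
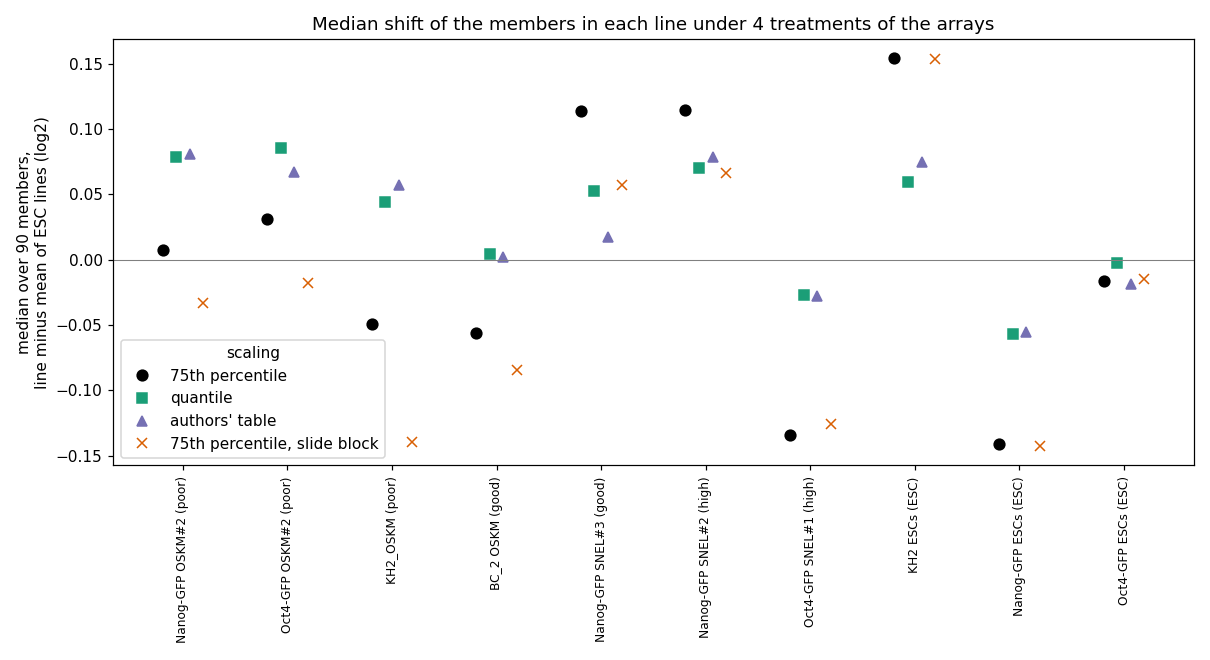
Median over the 90 members of the difference between a line and the ESC lines (log2, y axis), for each of the 10 lines (x axis), under 75th-percentile scaling, quantile normalization, the authors' value table, and 75th-percentile scaling with slide as a block. The sign differs between scalings in KH2_OSKM (-0.05 by the 75th percentile, 0.04 by quantiles) and BC_2 OSKM, and with slide as a block also in Nanog-GFP OSKM#2 and Oct4-GFP OSKM#2, and agrees in KH2 ESCs (0.15 and 0.06) and Nanog-GFP ESCs (-0.14 and -0.06).

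In 2 ESC lines the complexes lay in much the same order under the other scalings. In KH2 ESCs the median differences from the other ESC lines were 0.29 for complex III, 0.27 for complex V, 0.17 for complex I and 0.07 for complex IV, and after quantile normalization 0.18, 0.16, 0.06 and 0.03. In Nanog-GFP ESCs they were -0.27, -0.25, -0.14 and -0.03, and after quantile normalization -0.18, -0.13, -0.06 and 0.005. Complexes III and V thus lay farther from the other ESC lines than complex IV in both lines and in opposite directions. They did so on the authors' value table too (0.13, 0.14, 0.07 and -0.02 in KH2 ESCs, and -0.15, -0.10, -0.04 and 0.04 in Nanog-GFP ESCs). Each of these 2 lines is part of the other's reference, so the opposite directions and like sizes are not 2 separate results. In KH2_OSKM, complex IV had a median of 0.03 and complex V one of -0.19 (0.16 and -0.08 after quantile normalization), and in BC_2 OSKM 0.15 and -0.15 (0.14 and -0.10). In other lines the order changed: complex IV in Nanog-GFP SNEL#2 had a median of 0.13, close to that of complex I, and one of 0.005 on the authors' value table, the lowest of the 4. In BC_2 OSKM 9 of 19 genes of complex IV were called higher and 2 lower, and in complex V 1 of 17 was higher and 7 were lower (18.6% and 22.5% of all genes). Of those 9, 6 are restricted isoforms described above (Cox4i2, Cox6a2, Cox7a1, Cox7b2, Cox8b and Cox8c). In Nanog-GFP SNEL#2, 12 of 38 genes of complex I were higher and 1 was lower, Ndufa4l2. These medians were not tested against each other.

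**Figure D3:**
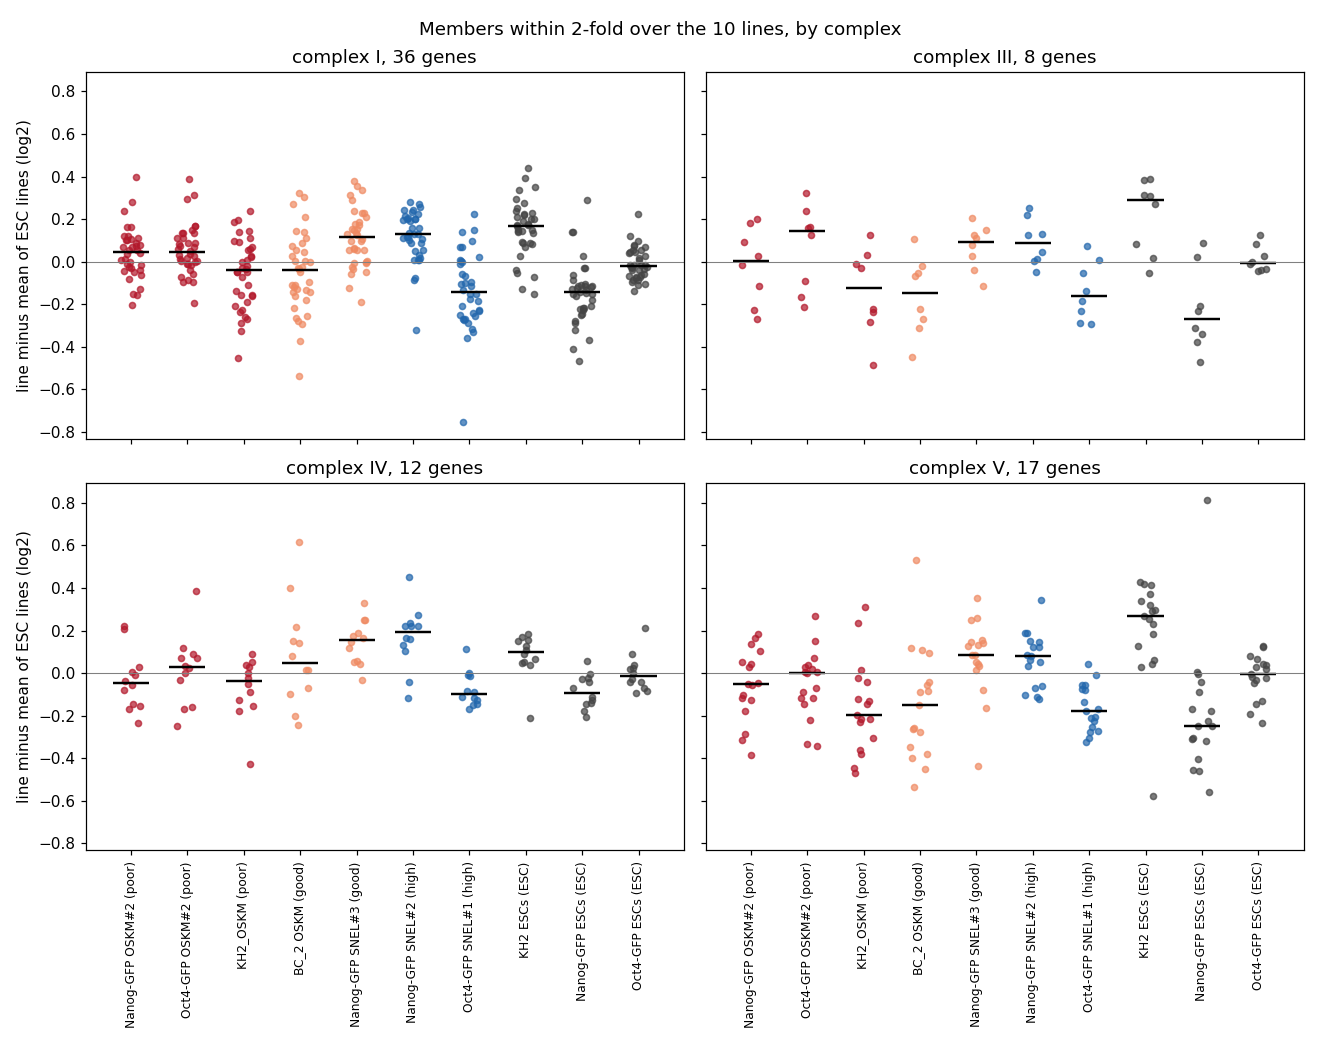
Differences between each line and the mean of the ESC lines (log2, y axis) for the members that stayed within 2-fold over the lines, as 1 point per gene with the median as a bar, for complexes I (36 genes), III (8), IV (12) and V (17), in the 10 lines (x axis, coloured by group). An ESC line is set against the other 2, and so has another reference than the iPSC lines. The highest medians of complexes III and V are in KH2 ESCs and the lowest in Nanog-GFP ESCs, 0.29 and -0.27 for complex III. For complex V the lowest place depends on the reference, since KH2_OSKM lies as low when all 3 ESC lines are the reference.

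The design grades the iPSC lines by quality and by factor set, and 6 comparisons follow from it, with the line as the replicate (each line's 2 arrays averaged; limma on 10 lines). For poor lines against ESC lines (3 against 3), 0 of 90 members passed the threshold, as did 0% of all genes, and at an unadjusted p under 0.05 there was 1 member against 9.74% of all genes. Over the members the median difference was 0.003 (median SE 0.17), against -0.04 for all genes. Atp5o, the stalk protein of ATP synthase that confers oligomycin sensitivity, had the smallest p. It lay at 4.70, 4.74 and 4.61 in the poor lines and at 5.30, 4.82 and 5.14 in the ESC lines. The groups did not overlap, and the difference was -0.40 ± 0.17 (SE; adjusted p = 0.5). It was -0.50 within slide 1 and 0.13 within slide 2, and the slide 3 arrays of the 4 lines on that slide read 0.59 higher for Atp5o than the other array of the same line. Next came Cox7b2 (1.59 ± 0.74, adjusted p = 0.551), for which Oct4-GFP ESCs were not well above background on either array and which ran from 0.59 to 2.15 over the alternatives, and Sdha. Sdha lay at 5.36, 5.15 and 5.28 in poor lines and at 5.57, 5.49 and 5.55 in ESC lines, a difference of -0.28 ± 0.14 (adjusted p = 0.596) that was -0.30 within slide 1 and -0.23 within slide 2. Members whose groups did not overlap numbered 4 higher and 7 lower, against 6.69% and 11.2% of all genes.

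For good lines against ESC lines (2 against 3), 0 members and 0% of genes passed, and 0 members and 6.16% of genes had an unadjusted p under 0.05. The median member difference was 0.04 (median SE 0.19), and -0.05 over all genes. The smallest p belonged to Cox7c, a small subunit of complex IV, at 6.61 and 6.37 in the good lines and 6.24, 6.19 and 6.19 in the ESC lines (difference 0.28 ± 0.16, adjusted p = 0.956). Ndufa8, an accessory subunit of complex I, differed by -0.36 ± 0.21 (adjusted p = 0.964) and by 0.03 within slide 2. Cox6b2 differed by 0.40 ± 0.24 (adjusted p = 0.98), and its good lines, at 5.06 and 4.63, both lay above the ESC lines, whose highest was 4.58. Groups did not overlap for 9 members that were higher and 6 that were lower, against 6.75% and 14.1% of all genes.

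For high lines against ESC lines (2 against 3), 0 members and 0% of genes passed, and 0 members and 5.85% of genes had an unadjusted p under 0.05. The median member difference was -0.009 (median SE 0.19), and -0.07 over all genes. It rested on 2 lines that lay on opposite sides: without Nanog-GFP SNEL#2 it was -0.13 and without Oct4-GFP SNEL#1 0.11. The smallest p was that of Ndufa10, an accessory subunit of complex I (-0.30 ± 0.26, adjusted p = 0.978), where Oct4-GFP SNEL#1 stood at 3.46 and Nanog-GFP SNEL#2 at 4.38, and the ESC lines at 4.28, 4.13 and 4.25. Sdha differed by -0.16 ± 0.16 and Ndufa6 by 0.17 ± 0.17 (adjusted p = 0.99 for each). Members whose groups did not overlap numbered 2 higher and 1 lower, against 5.67% and 15.3% of all genes.

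For good and high lines against poor lines (4 against 3), 0 members and 0% of genes passed, and 0 members and 5.14% of genes had an unadjusted p under 0.05. The median member difference was 0.02 (median SE 0.16), and -0.03 over all genes. Cox7a2l (0.27 ± 0.15), Atp5a1, the catalytic-ring alpha subunit (0.24 ± 0.15), and Cox6a1 (0.18 ± 0.13) had the smallest p, with adjusted p of 0.929, 0.929 and 0.933 in limma. Cox7a2l lay at 6.50, 6.57 and 6.77 in the poor lines and at 6.95, 7.06, 6.97 and 6.56 in the good and high lines. Only Oct4-GFP SNEL#1 fell inside the range of the poor lines. Groups did not overlap for 1 member that was higher and 1 that was lower, against 2.65% and 3.23% of all genes.

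For SNEL against OSKM lines (3 against 4), 0 members passed where 0.00736% of genes did (2 genes), and 0 members and 9.39% of genes had an unadjusted p under 0.05. Members had a median difference of 0.06 (median SE 0.14), and -0.006 over all genes. Complex V had a median of 0.12, with 14 of 17 genes higher. Uqcrfs1 lay at 4.81, 4.92 and 4.41 in SNEL lines and at 4.47, 4.48, 4.21 and 4.25 in OSKM lines (0.36 ± 0.17, adjusted p = 0.545). Cox6a2 lay at -2.39, -2.28 and -0.25 in SNEL lines and at -1.37, -0.45, 0.03 and -0.16 in OSKM lines (-1.15 ± 0.56, adjusted p = 0.555). Oct4-GFP SNEL#1 thus sat with the OSKM lines for both genes. Cox7b2 had the smallest p (-1.34 ± 0.60, adjusted p = 0.535), and 2 of the 3 SNEL lines were not well above background for it, so its size is uncertain (-1.74 to -0.3 over the alternatives). Without Oct4-GFP SNEL#1, 344 genes and 0 members passed. Groups did not overlap for 3 members that were higher and 1 that was lower, against 3.54% and 3.95% of all genes.

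For iPSC against ESC lines (7 against 3), 0 members and 0% of genes passed, and 1 member and 9.57% of genes had an unadjusted p under 0.05. Without Oct4-GFP SNEL#1, 118 genes and 0 members passed. The median member difference was 0.02 (median SE 0.13), and -0.05 over all genes. The member with an unadjusted p under 0.05 was again Atp5o (-0.31 ± 0.14, adjusted p = 0.513), at -0.43 within slide 1, 0.19 within slide 2 and -0.31 within slide 3. Sdha differed by -0.20 ± 0.11 (adjusted p = 0.668) and by -0.23, -0.14 and -0.23 within slides 1, 2 and 3. Cox7b2 had a fitted difference of 1.09 ± 0.64 (adjusted p = 0.695), but Oct4-GFP ESCs and 2 SNEL lines were not well above background for it, and over the alternatives it ran from 0.47 to 1.41. The groups did not overlap for 0 members that were higher and 1 that was lower, Atp5b, the catalytic beta subunit, against 0.659% and 3.65% of all genes. These comparisons share the ESC lines or the iPSC lines and are not independent of each other.

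**Figure D4:**
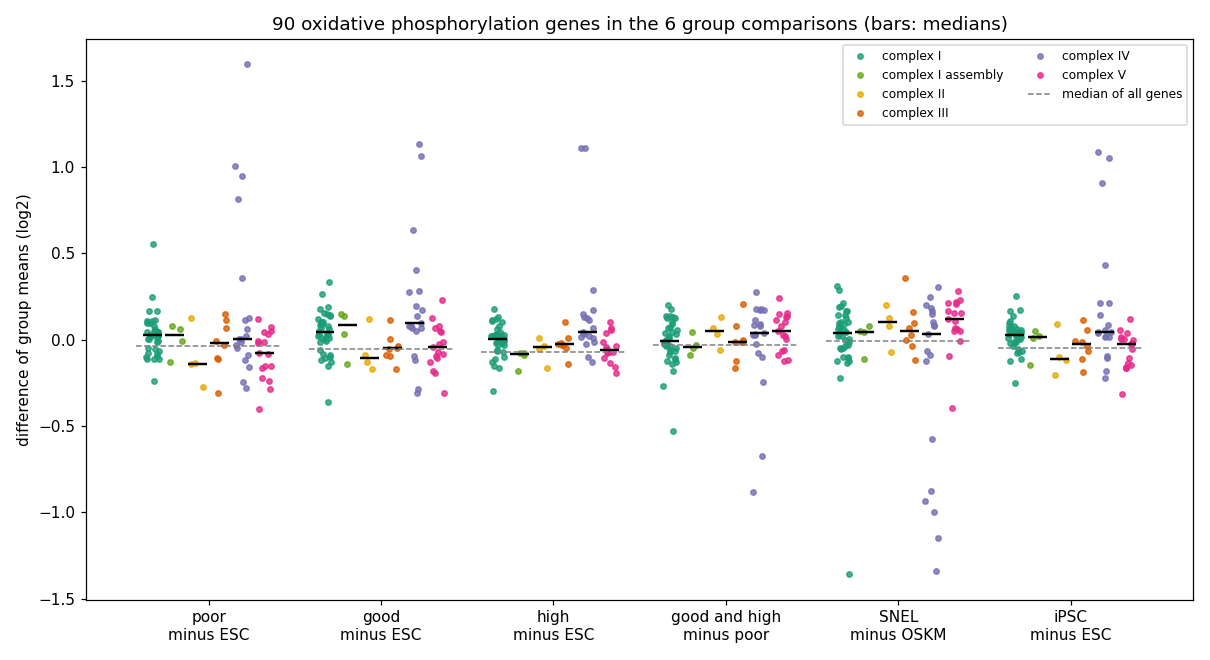
Differences of group means (log2, y axis) of the 90 members in the 6 comparisons (x axis), as 1 point per gene coloured by complex, with black bars for the median of each complex and dashed lines for the median of all genes. Medians of the complexes lie between -0.14 (complex II, poor against ESC lines) and 0.12 (complex V, SNEL against OSKM lines), and the points beyond 0.5 are restricted isoforms of complex IV and Ndufa4l2.

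The slides bear on these small differences. Within slide 1, where KH2 ESCs were the only ESC line, the median member difference was -0.14 for poor, -0.13 for good, -0.13 for high and -0.13 for iPSC lines against ESC. Within slide 2, where the ESC lines were Nanog-GFP ESCs and Oct4-GFP ESCs, it was -0.02, 0.03, 0.13 and 0.02. Within slide 3, which holds Oct4-GFP SNEL#1 and the 3 ESC lines, it was -0.15. In the 4 lines with an array on slide 3, that array read lower than the other array of the line in all 4 lines for 47 of 90 members (52.2%, against 22.6% of all genes) and higher in all 4 for 9 (10%, against 21.4%), with a median of -0.09.

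Where a gene had several probes, they mostly ranked the lines alike. Of 31 further probes of 24 genes, 26 had a Pearson correlation over the 10 lines above 0.5 with the brightest probe, and the median was 0.90. Atp5l, with 5 probes, was among them. The other 5 belong to Atp5c1, Cox7c (2 probes), Ndufb2 and Ndufv3. The second probe of Atp5c1, the gamma subunit of ATP synthase, read 1.47 higher on slide 3 than on the other array of the same line, while the brightest probe read -0.04. For Cox7c the third probe read 1.20 and the second 0.88 higher on slide 3, and the brightest -0.12. The second probe of Ndufb2 had a correlation of 0.19 with the brightest, and its slide 3 difference ran from -0.36 to 0.56 over the 4 lines. Ndufv3 had the lowest correlation between 2 probes, -0.54, although its second probe read only -0.23 relative to the other array on slide 3 and its brightest -0.06. Among probes that ranked the lines more alike, the second probe of Uqcrq (correlation 0.68) read 0.75 higher on slide 3 and its brightest -0.05. Ndufa8, with 1 probe, read 0.54 higher.

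**Figure D5:**
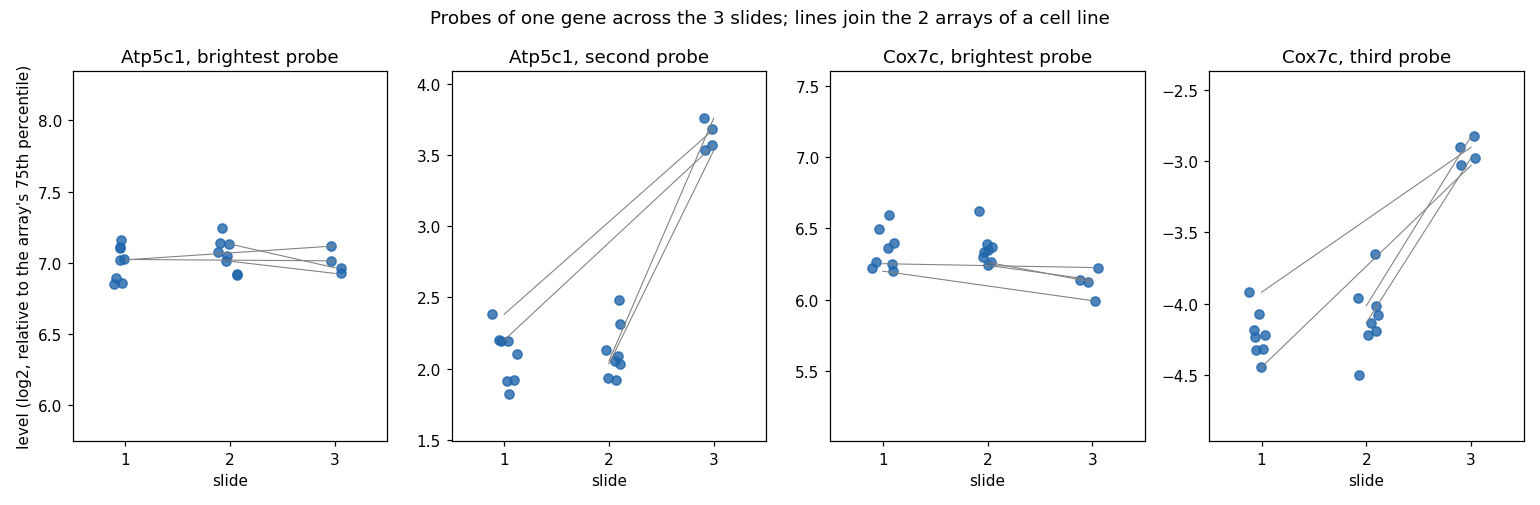
Levels (log2, with the array's 75th percentile subtracted, y axis) of 2 probes of Atp5c1 and 2 probes of Cox7c on the 3 slides (x axis), with 1 point per array and grey lines joining the 2 arrays of a cell line for the 4 lines on slide 3. On slide 3 the second probe of Atp5c1 reads 1.47 higher and the third probe of Cox7c 1.20 higher, while the differences of the brightest probes are -0.04 and -0.12.

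Members on chromosomes 8 and X were examined because copies of these chromosomes can differ between cultured lines. Of the 4 on chromosome 8, Ndufb7, an accessory subunit of complex I, ran from 6.19 in Oct4-GFP SNEL#1 to 6.92 in Nanog-GFP OSKM#2, 1.66-fold (adjusted p = 0.00179, limma F test). Ndufa13 ranged 1.16-fold (adjusted p = 0.463), and Cox4i1 and Cox4nb are given above. In Nanog-GFP OSKM#2 all 4 were above the ESC mean, with a median of 0.23 relative to all genes, and the 1455 genes of chromosome 8 had a median of 0.21 there. All 4 were also above in Nanog-GFP SNEL#3, Nanog-GFP SNEL#2 and Oct4-GFP ESCs (0.15, 0.14 and 0.09), where the whole chromosome lay at -0.04, -0.05 and 0.17. All 4 were below in Nanog-GFP ESCs, KH2_OSKM and Oct4-GFP SNEL#1 (-0.16, -0.08 and -0.06), where the chromosome lay at -0.08, 0.08 and -0.09. On the X chromosome, Ndufa1 ran from 5.53 in KH2_OSKM to 6.03 in Nanog-GFP SNEL#3, 1.42-fold (adjusted p = 0.000125), and Ndufb11 ranged 1.27-fold (adjusted p = 0.0974).

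The mitochondrial genome encodes core subunits of complexes I, III and IV and membrane subunits of complex V, and 12 of its subunits were measured. Of these 9 differed between lines, against 61.8% of all genes. In Nanog-GFP SNEL#2, 8 of 12 were higher than in the ESC lines and 1 lower (14.8% and 14.6% of all genes), with a median of 0.43. In KH2_OSKM 1 was higher and 8 were lower (19.7% and 23.1% of all genes), with a median of -0.32. After quantile normalization the counts were 8 and 1 in the first line (median 0.38) and 1 and 5 in the second (-0.21). Of all 27156 genes, 7734 and 12259 were called in these lines after that normalization. ND3, a membrane subunit of complex I, ran from 5.14 in KH2_OSKM to 6.36 in Nanog-GFP SNEL#2, 2.33-fold (adjusted p = 1.05e-05). ND6, the one subunit encoded on the other strand, ran the opposite way, from -1.27 in Nanog-GFP SNEL#2 to 0.36 in KH2_OSKM, 3.10-fold (adjusted p = 0.00296). The array's annotation gives chromosome 1 for some of these probes.

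Mitochondrial ribosomal proteins, which translate those subunits, differed between lines for 68 of 77 measured, against 61.8% of all genes. After 75th-percentile scaling 44 were higher and 2 lower in KH2 ESCs (median 0.24; 14.6% and 11.6% of all genes), 5 and 46 in Nanog-GFP ESCs (-0.24; 15.4% and 20.6%), and 3 and 44 in Oct4-GFP SNEL#1 (-0.25; 13.8% and 23%). After quantile normalization they were 26 and 3 (0.14), 6 and 31 (-0.14) and 10 and 20 (-0.11), so the counts fell and the directions did not turn in these 3 lines. Of all 27156 genes, 6489, 9237 and 8849 were called in them after that normalization. An ESC line is set against the other 2, so KH2 ESCs and Nanog-GFP ESCs are each part of the other's reference. KH2 ESCs also had the highest medians of complexes III and V, and Nanog-GFP ESCs the lowest of complex III. For complex V the lowest line depended on the reference. Set against the mean of all 3 ESC lines, its median was -0.18 and -0.19 on the arrays of KH2_OSKM. On those of Nanog-GFP ESCs it was -0.09 and -0.19. Mrpl20 ran from 5.13 in Nanog-GFP ESCs to 6.23 in KH2 ESCs, 2.15-fold (adjusted p = 1.68e-06). Of 83 cytosolic ribosomal protein genes 18 differed between lines, against 61.8% of all genes. Rpl10l, a testis paralog, had the smallest p, with an 11.5-fold range (adjusted p = 3.44e-10, limma F test).

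Of 28 regulators of respiratory genes 25 were measured and 21 differed between lines, against 61.8% of all genes. Nrf1, the factor whose letters were searched in the promoters, lay highest in Nanog-GFP SNEL#2 (1.90) and Nanog-GFP SNEL#3 (1.82) and lowest in BC_2 OSKM (0.13) and KH2_OSKM (0.32), 3.40-fold (adjusted p = 1.32e-08). Myc, a driver of growth and mitochondrial genes and one of the OSKM factors, was lowest in BC_2 OSKM (-4.49), Nanog-GFP ESCs (-4.46) and Oct4-GFP SNEL#1 (-3.92) and highest in KH2 ESCs (-0.47), 16.2-fold (adjusted p = 2.61e-12). These 3 lines are among the 4 with the highest Ndufa4l2. Lin28a, an RNA-binding protein and the Lin28 of the SNEL set, ranged 9.83-fold, from 2.10 in Oct4-GFP SNEL#1 to 5.40 in KH2 ESCs. Lrpprc, which stabilizes mitochondrial transcripts, ran from 4.36 in KH2_OSKM to 5.55 in Nanog-GFP SNEL#3 (2.28-fold, adjusted p = 1.25e-07).

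Of further assembly factors outside the name rule, 7 of 7 for complex I and 21 of 25 for complexes II to V differed between lines, against 61.8% of all genes. Acad9, needed to assemble complex I, was lowest in Oct4-GFP SNEL#1 (1.19) and highest in KH2 ESCs (2.64), 2.72-fold (adjusted p = 2.61e-08). Cox20, a chaperone of complex IV, ran from 1.35 in KH2_OSKM to 2.72 in KH2 ESCs, 2.58-fold (adjusted p = 2.33e-08). Electron carriers and related subunits had 9 of 14 genes that differed, near the share of all genes, of which Coq2, an enzyme of ubiquinone synthesis, ranged 2.24-fold. Genes of the tricarboxylic acid cycle and pyruvate dehydrogenase had 16 of 21, against the same 61.8% of all genes. Pdk4, the kinase that shuts pyruvate dehydrogenase, was highest in Nanog-GFP ESCs (1.55), KH2_OSKM (1.34) and BC_2 OSKM (1.21) and lowest in Nanog-GFP SNEL#3 (-0.93), 5.59-fold (adjusted p = 4.9e-10). Those 3 lines were also the highest for Ndufa4l2. For ATP export and uncoupling, 8 of 9 differed, Slc25a4, the ADP and ATP carrier, by 1.74-fold (adjusted p = 0.000104). None of the genes in these lists passed the threshold in the 6 group comparisons.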

How the data were processed

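The 20 one-colour scanner files hold each spot's intensity after background subtraction by Feature Extraction 10.1.1.1 (array design 028005, mm9 probe coordinates), per the file headers. The deposited value table holds log2 values that rank like the scanner's signal with nearly equal columns (medians 6.2663 to 6.2801); its normalization is not given in the sources used here. The submitters' processing notes name limma.

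Control spots and values marked as outliers by the scanner software were left out, and repeated spots of a probe were averaged. Log2 signals were scaled to the 75th percentile of each array (signals of 586.8 to 1076). A gene was represented by its brightest probe among those well above background on 4 or more of the 20 arrays. Limma 3.58.1 in R 4.3.3 with the data.table package (version 1.17.8) gave an F test between lines on 20 arrays and 6 group comparisons on 10 line means (Benjamini-Hochberg adjustment, 27156 genes, threshold 0.05), and was tested on simulated data. In the fits on arrays, 1 member value was missing (Ndufa12).

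The members, the gene lists and the alternatives were chosen with earlier results of these data known. Named members are the 3 with the smallest p per complex between lines and per group comparison (all past the threshold where there are any), the paralog sets and those on chromosomes X and 8, and up to 6 genes of each other list. Atp5b, Uqcr11, Atp5j, Atp5j2, Atp5c1, Ndufv3 and the grouping of the 7 restricted isoforms were chosen after their values were seen. Alternatives were quantile normalization, normexp (offset 50), the deposited value table, other filters, the mean of all probes, slide and replicate blocks, values within slides, and leaving out each line; the other scalings of the mitochondrial ribosomal and mitochondrially encoded genes were added after seeing the data. Correlations over lines are given as descriptions. Promoters are from RefSeq and were searched on both strands. The precision is limited by the number of arrays, 2 per line. Primitive endoderm markers, also listed, differed between lines for 10 of 10 genes, against 61.8% of all genes.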

Additional observations from a re-analysis of the deposited data

Results flagged for a closer look

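Of 98 groups of lines examined, 1 held a line far from the others, where about 1 in 20 groups is marked by chance. Among the 7 iPSC lines, Ndufa10 stood at 3.46 in Oct4-GFP SNEL#1, and the nearest line, BC_2 OSKM, stood at 4.11; this gap is 0.656 of the range of the 7 lines. The array of Oct4-GFP SNEL#1 on slide 3 read -0.95 relative to the array on slide 1, and the F test between lines did not call Ndufa10 (limma, adjusted p = 0.0559). The part of the slide in this value was not tested.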

How the results depend on the processing

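In each of the 6 group comparisons the number of members called was 0 under all alternatives run. The number of genes called moved. With the line as a random block over all arrays it was 40 for poor, 10 for good and 5 for high lines against ESC lines, 6 for good and high against poor lines, 83 for SNEL against OSKM lines and 7 for iPSC against ESC lines. With slide as a further block it was 11, 4 and 0 against ESC lines by grade, 4, 11 and 1. Deviations of same-numbered arrays from their line means were weakly and mostly positively correlated. The 45 correlations ran from -0.096 to 0.51, with a median of 0.167 and 29 over 0.1. Whether the replicate numbers pair the arrays was not tested. With the replicate number as a block the counts were 26, 5, 0, 5, 46 and 7, with 71 members called between lines. Of all genes, 14549 to 18087 were called between lines over the 18 alternatives run. Leaving out 1 line at a time gave 0 to 2 genes for poor, 0 to 6 for good, 0 to 1 for high, 0 to 1 for good and high against poor, 0 to 344 for SNEL against OSKM and 0 to 118 for iPSC against ESC lines; 344 and 118 came without Oct4-GFP SNEL#1. The SNEL against OSKM count was also 7 after quantile normalization, 1 with probes above background on all 20 arrays, and 0 with the mean of all probes. The cause was not tested.

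The median member difference of high against ESC lines ran from -0.13 to 0.11 when 1 line was left out. Within slide 1 this median was -0.14 for poor, -0.13 for good, -0.13 for high and -0.13 for iPSC lines; within slide 2 it was 0.13 for high lines, and within slide 3 -0.15 for high and -0.15 for iPSC lines. These within-slide values rest on fewer lines. On the values deposited by the authors, 43 members differed between lines (on the scanner values 60 to 66 when 1 line was left out). Over the 18 alternatives of that test, 14549 to 18087 of all genes were called. On the deposited values 169 member calls were made over the lines against the ESC lines, where 75th-percentile scaling gave 291 and quantile normalization 228. Among all genes, 77166 to 98088 such calls were made over the 4 alternatives run. Of the 291 member calls, 0 changed sign after quantile normalization and 4 on the deposited values, and 0 of these 4 were called there. Of 225 results, quantile normalization moved 79 and the deposited values moved 84. For 3 members the signal lay near background in some lines, so their ranges are bounds.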
